A study of Mus musculus with 6 samples.

Results

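The genes described here make up the erythroid programme of the mouse embryo without its globins: erythroid transcription factors and the erythropoietin receptor, the enzymes of heme synthesis, the carriers that bring iron and heme intermediates into mitochondria, and the proteins of the red cell membrane. They were chosen by name from their known roles, with earlier results of these data known, and all 35 names were found among the 21877 gene symbols of the table. The RNA came from mouse embryos of embryonic day 7.5. The wild type (WT) and the embryos carrying the S254D knock-in of Rnf111 (KI) each had 3 sequenced libraries. The ubiquitin ligase Rnf111, known as Arkadia, promotes Nodal and TGF-beta signalling, and the comparison asks how the mutant allele affects transcript levels. No agent or further allele is named for either group. The sources used here do not give zygosity, strain, sex or litter, or how many embryos went into each library. What the p-values measure is thus the spread among these 6 libraries, and part of it may be technical.

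The first red cells of the mouse form in the blood islands of the yolk sac and are called primitive erythroid cells. They fill with embryonic globins, and each globin chain needs a heme. Gata1 and Klf1 are the transcription factors on which their globin, heme and membrane genes depend. Heme is built by a chain of enzymes that begins in mitochondria with Alas2, the erythroid form of the rate-limiting enzyme, passes through the cytosol and ends in mitochondria with Fech, which inserts the iron. Several of the later enzymes, and the transferrin receptor Tfrc, are also used by most growing cells, so their RNA in a whole embryo comes from many cell types.

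Erythroid RNA was present in every library. The embryonic globin genes Hba-x, Hbb-bh1 and Hbb-y, which mark primitive red cells, lay between 133 and 1383 RPKM, where RPKM is the number of reads scaled by exon length and library depth. The adult beta globin genes Hbb-bs and Hbb-bt, near-identical copies whose reads can be split between them, did not exceed 5.87 RPKM. The adult-type alpha globin genes were not low: Hba-a1 lay between 198 and 280 RPKM and Hba-a2 between 39.7 and 75.7. How reads were split between these alpha genes was not tested. Among 10 megakaryocyte markers the highest value in any library was 1.56 RPKM, for Pf4. Plek (0.669) and Itgb3 (0.456) followed. The white cell markers with the highest means reached at most 9.32 RPKM for Cd68, 2.55 for Fcgr3 and 0.211 for Csf1r. The white cell genes Ptprc, C1qa and Cd48 were listed at 0 in all 6 libraries.

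Library depth ran from about 9763000 to 13559000 reads. WT 3 and KI 2 stood apart from the other libraries and are named beside each result they touch. WT 3 had the lowest median level over all tested genes, 2.49 on the log2(RPKM + 1) scale against 2.79 to 2.97 elsewhere. Markers of the yolk sac endoderm, the tissue that lies against the blood islands, summed to 32.4 RPKM in KI 2 and 1515 in WT 3, against 579 to 864 elsewhere, led by Rbp4, Apoa1 and Ttr. Y-linked genes, led by Ddx3y, Eif2s3y and Uty, summed to 41.0, 42.5 and 62.0 RPKM in WT 1, 2 and 3 and to 7.29, 50.9 and 0 in KI 1, 2 and 3. The part of these differences in the results below was not tested, except where values without a library are given.

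None of the members passed the threshold for a difference between the genotypes, a Benjamini-Hochberg adjusted p under 0.05 by limma on log2(RPKM + 1) over all 10104 tested genes. Of the 35 members 24 reached 1 RPKM in at least 3 libraries and were tested, and 0 were called, against 0.0% of all tested genes. At an unadjusted p under 0.05 there was 1 member, Gfi1b, against 1.2% of all tested genes, and limma-voom on the recovered reads gave the same 2 counts for the members, 0 called and 1 at an unadjusted p under 0.05. In 2 of the 24, Gfi1b and Rhag, the 3 KI values all exceeded the 3 WT values. Such a separation was found for 3.8% of all tested genes with KI higher and for 2.74% with KI lower, 6.54% in all. The median log2 difference of the 24 was 0.10, with 18 positive and 6 negative, beside a median of 0.05 and 58.8% positive over all tested genes. Without WT 3 the member median turned to -0.09, with 9 positive and 15 negative, while the median of all genes turned to -0.05.

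**Figure D1:**
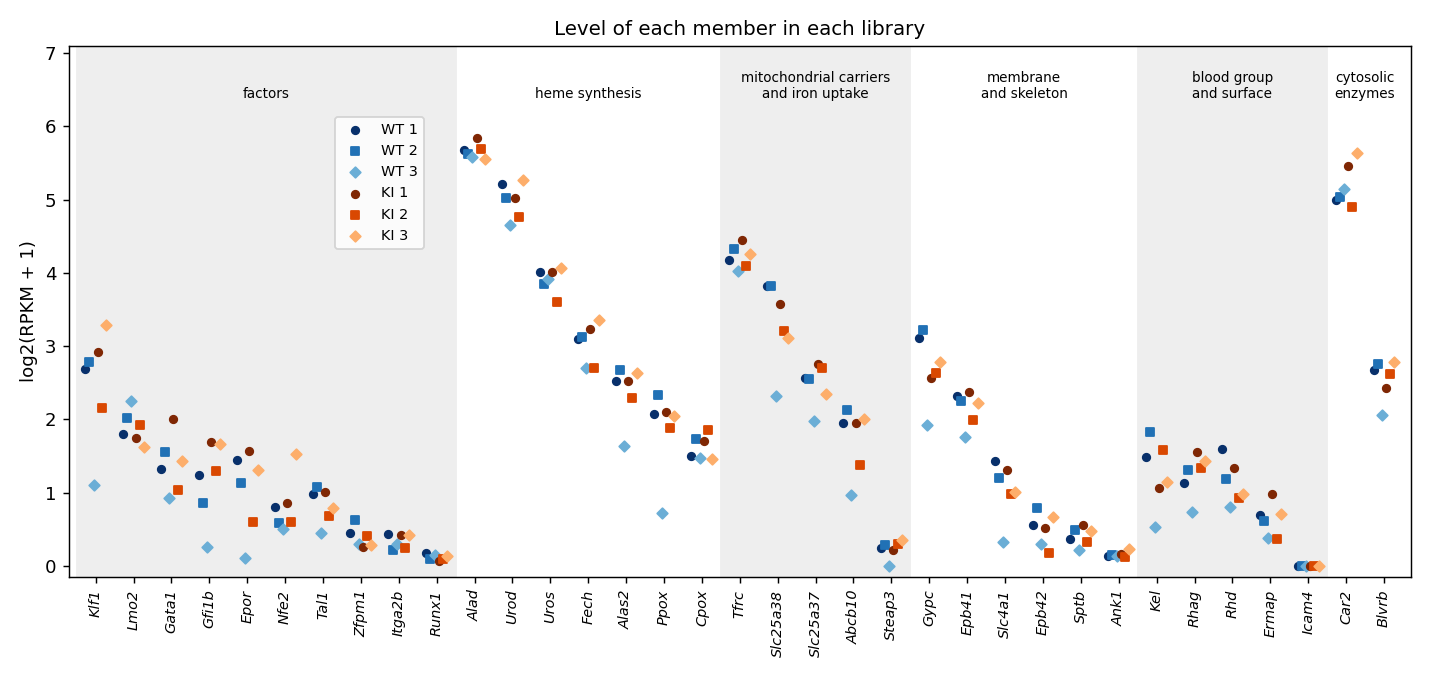
Level of each of the 35 members in each library, as log2(RPKM + 1), ordered by mean level within each role. Points are single libraries. The heme enzymes Alad and Urod, with Car2, lie highest, the factors lie low, and the light blue diamonds of WT 3 are the lowest point for 19 of the 24 tested members.

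The erythroid factors were expressed at a low level and varied widely between libraries of the same genotype. Klf1, the zinc finger activator of beta-like globin genes, was at 5.43, 5.91 and 1.15 RPKM in WT 1, 2 and 3 and at 6.57, 3.47 and 8.82 in KI 1, 2 and 3. The groups overlapped, with the lowest value in WT 3 and the next lowest in KI 2. Gata1, the X-linked master factor of the red cell lineage, was at 1.51, 1.94 and 0.908 in WT and 3.03, 1.05 and 1.71 in KI, and its low values were in the same pair of libraries. Lmo2, the bridging protein of the complex that joins Gata1 to Tal1, went another way: it was at 2.495, 3.06 and 3.78 in WT and 2.37, 2.79 and 2.08 in KI, highest in WT 3. Lmo2 is also expressed in endothelium and its progenitors. The KI minus WT differences were 0.60 for Klf1 (SE 0.50, 95% interval -0.57 to 1.77), 0.22 for Gata1 (SE 0.29, -0.45 to 0.90) and -0.26 for Lmo2 (SE 0.19, -0.71 to 0.19), all on the log2(RPKM + 1) scale and none past the threshold (adjusted p = 0.999 by limma for each). Without WT 3 the Klf1 difference was 0.06 (SE 0.31).

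Gfi1b, a zinc finger repressor that red cell and platelet precursors need, was the member closest to a difference. It was at 1.354, 0.819 and 0.202 RPKM in WT 1, 2 and 3 and at 2.23, 1.46 and 2.18 in KI 1, 2 and 3. All KI values lay above all WT values, but the gap between WT 1 and KI 2 was narrow, and the values rest on 5 to 47 reads per library. The means were 0.791 ± 0.577 in WT and 1.96 ± 0.434 in KI (SD, n = 3 each), a ratio of 2.47. On the log2 scale the difference was 0.76 (SE 0.27, 95% interval 0.13 to 1.40; unadjusted p = 0.0244 and adjusted p = 0.999 by limma). Without WT 3 the difference was 0.50 and the adjusted p 0.957. Weighting each library by its spread called Gfi1b (log2 difference 0.76, adjusted p = 0.0294), a setting that called 0.92% of the tested genes, 0.346% with KI higher and 0.574% with KI lower. Without WT 3 and KI 2 together 0 members were called, beside 0.178% of the tested genes with KI higher and 0.228% with KI lower. Over all alternatives its adjusted p ran from 0.0294 to 1.0. Those weights rest mostly on KI 1 (7.75) and WT 2 (3.41), which also differ in Y-linked expression (7.29 and 42.5 RPKM), so with these weights genotype and Y-linked expression cannot be told apart.

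The remaining factors were near or under the minimum for the test. Epor, the receptor for erythropoietin, was at 1.74, 1.19 and 0.0742 RPKM in WT, the last from 2 reads, and at 1.97, 0.515 and 1.48 in KI. It followed Klf1 and Gata1 in being lowest in WT 3 and then KI 2. Its difference of 0.26 on the log2 scale had an SE of 0.40. Nfe2, a leucine zipper factor of red cell and platelet precursors, reached 1.89 RPKM in KI 3 and lay between 0.420 and 0.814 elsewhere. Tal1, the helix-loop-helix factor that starts the blood lineage, lay between 0.371 and 1.12 RPKM. The Gata1 cofactor gene Zfpm1 did not exceed 0.540 RPKM, Itga2b, an integrin of early blood progenitors and platelets, 0.358, and Runx1, the factor of definitive blood, 0.125. These 5 genes were not tested.

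The promoters of 5 members are shown as examples. Each holds a word that GATA factors bind, and each gene had its lowest value in WT 3, as did 19 of the 24 tested members. The sequences are the 250 bases before the gene start from RefSeq on GRCm38.p6, matched by symbol, and the capitals mark the GATA word. The positions are chr8:84901732-84901981 (plus strand) for Klf1, chr2:28621983-28622232 (minus strand) for Gfi1b, chr9:21963577-21963826 (minus strand) for Epor, chrX:150547167-150547416 (plus strand) for Alas2 and chr17:40810899-40811148 (plus strand) for Rhag, on a build earlier than the GRCm39 of the deposited values.
Klf1: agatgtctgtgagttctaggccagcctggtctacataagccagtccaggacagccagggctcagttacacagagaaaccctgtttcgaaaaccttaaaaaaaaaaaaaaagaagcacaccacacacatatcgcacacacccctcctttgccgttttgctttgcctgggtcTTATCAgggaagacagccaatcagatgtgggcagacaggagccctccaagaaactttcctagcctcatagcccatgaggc
Gfi1b: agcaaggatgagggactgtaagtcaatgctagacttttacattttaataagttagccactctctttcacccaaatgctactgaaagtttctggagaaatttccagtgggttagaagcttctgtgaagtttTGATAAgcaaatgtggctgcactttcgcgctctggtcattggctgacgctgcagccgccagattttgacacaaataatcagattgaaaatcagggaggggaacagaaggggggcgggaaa
Epor: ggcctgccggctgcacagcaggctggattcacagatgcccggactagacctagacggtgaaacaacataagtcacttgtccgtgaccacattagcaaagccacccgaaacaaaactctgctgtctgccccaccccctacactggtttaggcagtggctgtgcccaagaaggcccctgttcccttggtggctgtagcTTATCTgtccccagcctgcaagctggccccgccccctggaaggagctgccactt
Alas2: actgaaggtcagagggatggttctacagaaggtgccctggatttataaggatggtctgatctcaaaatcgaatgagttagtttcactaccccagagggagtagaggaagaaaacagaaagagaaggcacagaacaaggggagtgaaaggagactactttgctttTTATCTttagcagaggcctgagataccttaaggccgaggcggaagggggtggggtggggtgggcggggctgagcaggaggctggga
Rhag: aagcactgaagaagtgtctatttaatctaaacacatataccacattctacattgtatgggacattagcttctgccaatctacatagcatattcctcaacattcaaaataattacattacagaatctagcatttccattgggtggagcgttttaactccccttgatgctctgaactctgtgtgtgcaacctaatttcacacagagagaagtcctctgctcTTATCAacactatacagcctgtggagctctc
The word begins 80 bases before the start in Klf1, 120 in Gfi1b, 54 in Epor, 86 in Alas2 and 31 in Rhag. The first word searched, on both strands, was AGATAA. The same word with another first letter, TGATAA, was searched as well. The forms of both that end in another letter were also counted, that is AGATAG for the first word, and TGATAG for the second word. Of 38 promoters listed for 27 of the 35 members, 16 (42.1%) held at least 1 such word, and 8718 of all 32851 promoters (26.5%) did. CCNCNCCC, a CACCC-type word bound by Klf factors that also matches boxes bound by Sp factors, was in 23 of the 38 (60.5%) and in 45.9% of all promoters. It was in the windows of Gfi1b, Epor and Alas2 and not in those of Klf1 and Rhag. These matches describe letters in a window and do not show binding. Rhd, Kel, Epb41 and Blvrb also had such a GATA word and their lowest value in WT 3, and are not shown. Gata1, Urod, Ppox, Slc25a38, Abcb10 and Tfrc were lowest in WT 3 with no GATA word in the listed promoters. Cpox and Uros held the word and were not lowest in WT 3, and Alad had no such word and was not lowest there. These lists cover tested members. Of the untested ones, Epb42 and Ermap held the word and were lowest in KI 2. Tal1 and Steap3, also untested, held it in a listed promoter and were lowest in WT 3. A link between the word and the level in WT 3 was not tested.

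By their medians, the heme synthesis genes differed less between WT 3 and the other WT libraries than the 5 tested factors did. The median log2 differences were -0.42 and -0.78, beside -0.33 for all tested genes, given as a description. Single heme synthesis genes differed more than the factor median, Ppox by -1.48 and Alas2 by -0.96. All 7 were tested, 6 with a positive and 1 with a negative difference, and 0 were called. Alad, the cytosolic enzyme that joins 2 molecules of aminolevulinate, was at 50.1, 48.3 and 46.8 RPKM in WT 1, 2 and 3 and at 56.3, 50.9 and 46.1 in KI 1, 2 and 3. Its means of 48.4 ± 1.66 and 51.1 ± 5.08 (SD, n = 3 each) differed by less than the KI spread, and WT 3 and KI 2 did not stand out. Urod, which trims uroporphyrinogen, was at 36.2, 31.4 and 24.2 in WT and 31.6, 26.2 and 37.6 in KI. Uros, which closes the porphyrin ring, was at 15.1, 13.5 and 14.0 in WT and 15.1, 11.2 and 15.8 in KI. Both overlapped between genotypes, with KI 2 the lowest KI library. Fech, the ferrochelatase, was at 7.59, 7.74 and 5.48 in WT and 8.43, 5.51 and 9.29 in KI, so that WT 3 and KI 2 were nearly equal and lowest. The 95% intervals of the log2 difference were -0.26 to 0.40 for Alad, -0.43 to 0.55 for Urod, -0.46 to 0.41 for Uros and -0.44 to 0.69 for Fech.

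Alas2, which commits glycine and succinyl-CoA to heme in red cells, was below Alad, Uros, Urod and Fech and above Cpox and Ppox in mean RPKM, at 4.75, 5.38 and 2.12 RPKM in WT and 4.74, 3.88 and 5.198 in KI. The groups overlapped, and the log2 difference of 0.20 (95% interval -0.49 to 0.90) was smaller than the spread between replicates. Alas1, the form used by all other tissues, was at 4.37, 4.20 and 2.14 in WT and 4.05, 2.29 and 4.02 in KI, so the ratio of Alas2 to Alas1 within a library stayed between 0.990 and 1.69. Ppox, the mitochondrial oxidase before Fech, was at 0.653 RPKM in WT 3 and 2.68 to 4.04 in the other 5 libraries. In GENCODE M21 17.5% of its exon bases, and 15.5% of those of Alas2, also lie in exons of another gene, and without strand their reads cannot be told apart. Cpox, the enzyme before Ppox, lay between 1.75 and 2.61 and overlapped.

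Among the carriers and iron uptake genes 4 of 5 were tested, and all 4 were lowest in WT 3. Tfrc, the transferrin receptor, varied least, at 17.1, 19.0 and 15.3 RPKM in WT and 20.9, 16.1 and 18.2 in KI. Slc25a38, the mitochondrial glycine carrier that feeds Alas2, was at 13.2, 13.2 and 4.0 in WT and 10.9, 8.20 and 7.61 in KI. Leaving out WT 3, its log2 difference was -0.53 (adjusted p = 0.957 by limma), in a fit where 36.9% of all tested genes were positive. Slc25a37, or mitoferrin, the iron importer of red cell mitochondria, was at 4.92, 4.86 and 2.95 in WT and 5.73, 5.49 and 4.09 in KI. Abcb10, a mitochondrial inner membrane transporter that stabilises mitoferrin, was at 2.86, 3.39 and 0.959 in WT and 2.89, 1.59 and 3.002 in KI. Both overlapped between genotypes, and KI 2 was low for Abcb10 and not for Slc25a37. In GENCODE M21 10.3% of the exon bases of Abcb10 and 6.33% of those of Slc25a37 also lie in exons of another gene. Steap3, the endosomal ferrireductase, was at most 0.273 RPKM, with 0 reads in WT 3, and was not tested.

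The membrane and skeleton genes were low, and 3 of 6 were tested, 0 of them called. Gypc, the glycophorin that ties the skeleton to the membrane and is also made outside blood, was at 7.63, 8.29 and 2.78 RPKM in WT 1, 2 and 3 and at 4.92, 5.23 and 5.88 in KI 1, 2 and 3. The KI values lay together between WT 3 and the other WT libraries. Its log2 difference was -0.09 with all libraries (SE 0.35) and -0.50 without WT 3 (unadjusted p = 0.00873, adjusted p = 0.957 by limma). Without WT 3, 457 of the 10104 tested genes, 3 members among them, had an unadjusted p under 0.05 by limma. Epb41, protein 4.1 of the skeleton, was at 3.99, 3.77 and 2.40 in WT and 4.16, 2.99 and 3.68 in KI. Slc4a1, the band 3 anion exchanger, was at 1.70, 1.31 and 0.256 in WT and 1.47, 0.984 and 1.01 in KI. Both were lowest in WT 3 and lowest among KI libraries in KI 2, with overlapping groups. Epb42, protein 4.2, was at 0.471, 0.728 and 0.231 RPKM in WT and 0.433, 0.132 and 0.593 in KI, lowest in KI 2. The beta-spectrin gene Sptb lay between 0.164 and 0.479 and the ankyrin gene Ank1 between 0.0909 and 0.173, and none of these 3 genes was tested.

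The surface genes included the second member with separated groups. Rhag, the Rh-associated glycoprotein, was at 1.19, 1.48 and 0.662 RPKM in WT and 1.93, 1.53 and 1.71 in KI, from 21 to 52 reads per library. The separation was slight, since WT 2 and KI 2 were nearly equal. The means were 1.11 ± 0.416 and 1.72 ± 0.200 (SD, n = 3 each), and the log2 difference was 0.38 (SE 0.20, 95% interval -0.08 to 0.84; adjusted p = 0.999 by limma). Its partner Rhd did not follow it, at 2.03, 1.29 and 0.740 in WT and 1.53, 0.900 and 0.980 in KI, a difference of -0.11 (SE 0.24). Rhd rests on 14 to 43 reads per library. Kel, the Kell endopeptidase, was at 1.81, 2.56 and 0.452 in WT and 1.097, 1.99 and 1.22 in KI, with KI 2 the highest KI library. Its difference was -0.02, and -0.40 without WT 3. Ermap, an immunoglobulin-family protein of the erythroid membrane, was at 0.624, 0.536 and 0.306 in WT and 0.968, 0.290 and 0.639 in KI, overlapped and was not tested. Icam4, an adhesion protein of the red cell surface, was listed at 0 in all 6 libraries, and 100% of its exon bases also lie in exons of another gene in GENCODE M21.

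Of the cytosolic enzymes, Blvrb was lowest in WT 3 and Car2 was not. Car2, carbonic anhydrase 2, was at 31.0, 31.9 and 34.3 RPKM in WT and 43.1, 28.9 and 49.0 in KI. It was lowest in KI 2 and higher in KI 1 and KI 3 than in any WT library. The log2 difference was 0.28 (SE 0.21), and 0.53 without WT 3 and KI 2 together (unadjusted p = 0.00033, adjusted p = 0.0617 by limma). In that fit 1177 of the 10104 tested genes, 6 members among them, had an unadjusted p under 0.05 by limma. KI 1 and KI 3 are also the libraries with little or no Y-linked expression, so without KI 2 genotype and Y-linked expression cannot be told apart. Blvrb, biliverdin reductase B, was at 5.40, 5.78 and 3.15 in WT and 4.37, 5.15 and 5.86 in KI, with overlapping groups.

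**Figure D2:**
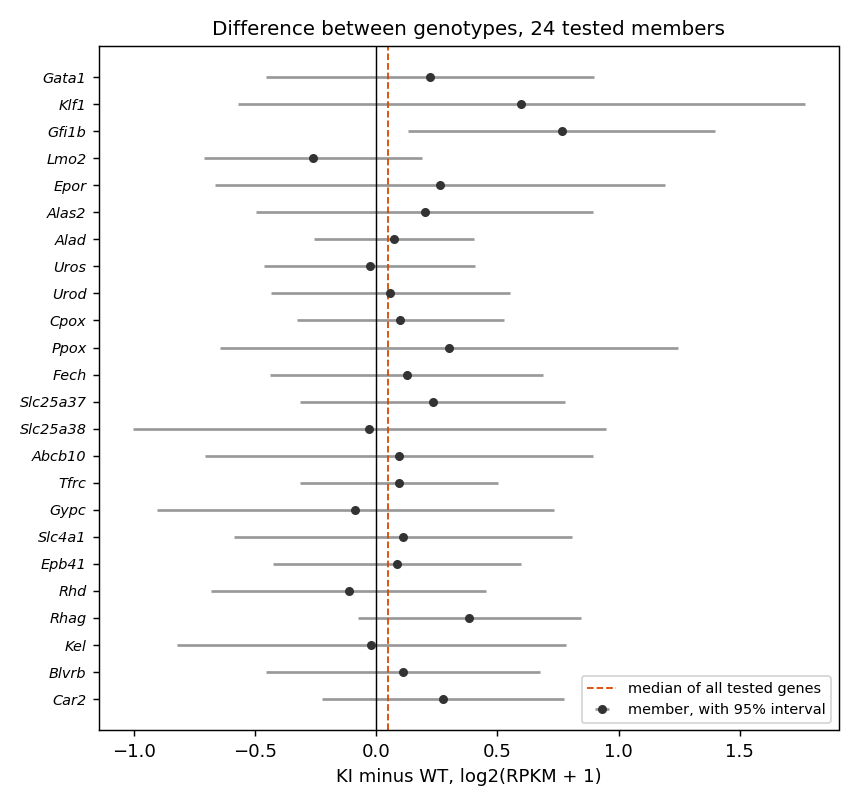
KI minus WT difference of the 24 tested members on the log2(RPKM + 1) scale, with 95% intervals from limma, in order of role. The interval of Gfi1b (0.13 to 1.40) is the only one of the 24 that leaves out 0, before any adjustment, and the dashed line is the median of all 10104 tested genes (0.05).

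For most members the libraries of a genotype spread widely, and the low values lay mostly in WT 3 and KI 2. WT 3 was the lowest of the 6 libraries for 19 of the 24 tested members, where 51.9% of all tested genes were lowest in WT 3. The 5 exceptions were Lmo2, Alad, Uros, Cpox and Car2. The median difference of WT 3 from the mean of WT 1 and WT 2 was -0.59 for the members and -0.33 for all tested genes, on the log2(RPKM + 1) scale. Klf1 (-1.63), Slc25a38 (-1.50) and Ppox (-1.48) differed most. KI 2 was below both other KI libraries for 16 of 24 members, where 49.95% of all tested genes were, and its median difference was -0.25 for the members and -0.08 for all tested genes. Klf1 (-0.95), Epor (-0.84), Gata1 (-0.69) and Car2 (-0.65) differed most in KI 2, while Kel (0.47), Cpox (0.27) and Lmo2 (0.23) were higher there. Fewer red cell precursors, less RNA per cell and the other differences of WT 3 and KI 2 described above cannot be told apart here. The part of each was not tested.

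**Figure D3:**
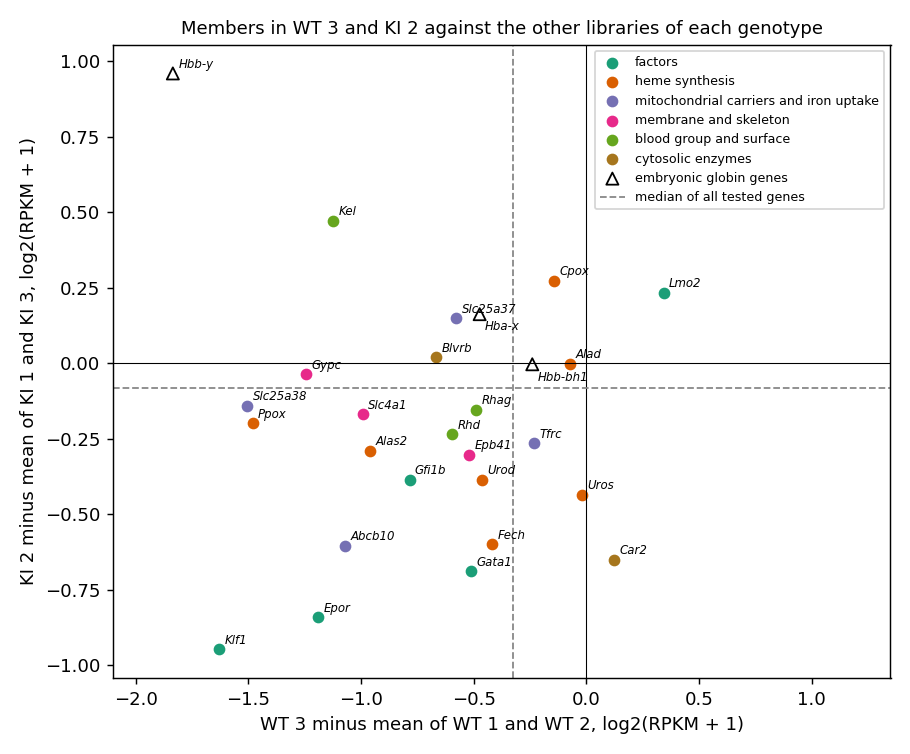
For each tested member, WT 3 minus the mean of WT 1 and WT 2 (horizontal) and KI 2 minus the mean of KI 1 and KI 3 (vertical), both in log2(RPKM + 1) and coloured by role. Triangles are embryonic globin genes and dashed lines are the medians of all tested genes (-0.33 and -0.08). Klf1 and Epor lie low on both axes, whereas Hbb-y is low in WT 3 and high in KI 2.

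The globin genes did not share the pattern of the factors in KI 2. Hbb-y, the epsilon-like globin gene, was at 464, 493 and 133 RPKM in WT 1, 2 and 3 and at 318, 603 and 302 in KI 1, 2 and 3, highest in KI 2. Hbb-bh1, the other embryonic beta-like gene, was at 768, 847 and 683 in WT and 857, 901 and 952 in KI, so that all KI values lay above all WT values by a small margin. Hba-x, the embryonic alpha-like gene, was at 1383, 1248 and 946 in WT and 858, 918 and 784 in KI, separated in the opposite direction. Hba-x and Hbb-bh1 did not pass the threshold (log2 difference -0.47 with SE 0.17 and 0.24 with SE 0.13; adjusted p = 0.999 each by limma). The 10 factor genes, Epor and Itga2b among them, summed to 10.98 RPKM in KI 2 against 18.6 and 19.5 in KI 1 and 3. The summed globins were 2787 against 2293 and 2291. Klf1 differed most within the first sum (3.47 in KI 2 against 6.57 and 8.82), and Hbb-y within the second. Among the factor genes Lmo2 and Zfpm1 were highest of the KI libraries in KI 2, and Runx1 lay between KI 1 and KI 3. Hbb-bh1 in KI 2 also lay between KI 1 and KI 3. In WT 3 both sums were low, 7.48 for the factors against 15.1 and 15.3 in WT 1 and WT 2, and 2006 for the globins against 2946 and 2896. The ratio of Hbb-bh1 to Klf1, the member that differed most in both libraries, was 592 in WT 3, 260 in KI 2 and 108 to 143 in the other 4. Ratios to other members separated these libraries less. To Gata1 the ratio of Hbb-bh1 was 753 in WT 3, 858 in KI 2 and 283 to 558 in the other 4. To Alas2 it was 323 in WT 3, 232 in KI 2 and 157 to 183 in the other 4.

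**Figure D4:**
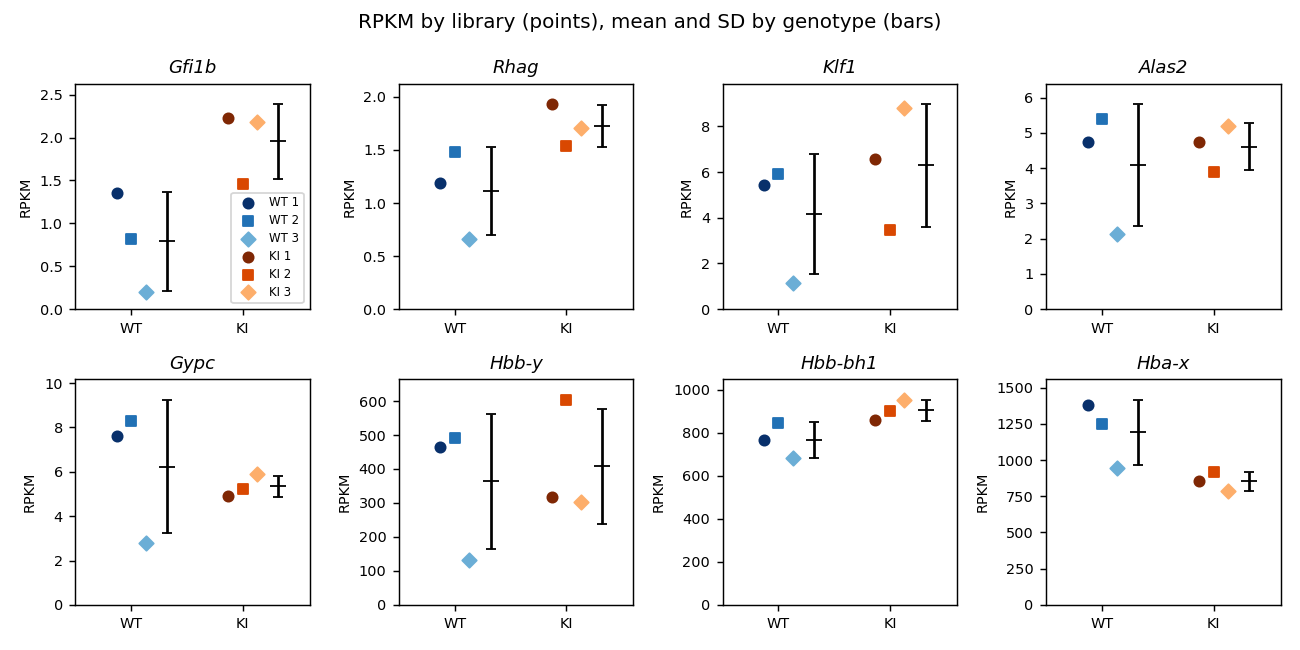
RPKM of 4 members in the top row (Gfi1b, Rhag, Klf1, Alas2) and of Gypc and 3 embryonic globin genes in the bottom row, by library, with the mean and SD (n = 3) of each genotype beside the points. KI lies above WT without overlap for Gfi1b, Rhag and Hbb-bh1 and below it for Hba-x, and the other 4 overlap.

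Other genes of the same pathways gave no call. Of 18 tested heme and iron genes outside the members, 9 had a positive and 9 a negative difference, and 0 passed. Ftl1 and Fth1, the ferritin light and heavy chains that store iron, were at 968 ± 245 and 124 ± 3.53 RPKM in WT and 1098 ± 26.9 and 135 ± 12.6 in KI (SD, n = 3 each). The low Ftl1 value, 685, was in WT 3. Tmem14c, a mitochondrial porphyrin transporter, was at 124 ± 16.1 in WT and 122 ± 8.91 in KI. Of 10 tested erythroid regulators outside the members 8 were positive and 2 negative, 8 were lowest in WT 3, and 0 passed. Those with the highest means were Lmo4, a LIM-only protein, at 5.49 to 42.9 RPKM, the cell cycle factor E2f4 at 6.83 to 17.2 and Fli1, an ETS factor of blood and endothelium, at 4.70 to 10.6, all with overlapping groups. Of 7 tested red cell membrane genes 4 were positive and 3 negative, and 0 passed. Slc2a1, the glucose transporter of the red cell and of many other cells, repeated the order of Klf1, at 123, 128 and 52.3 RPKM in WT and 148, 68.5 and 174 in KI. Cd59a, an inhibitor of complement, lay between 5.32 and 19.5 RPKM with overlapping groups. Endothelial markers, which share Lmo2 and Tal1 with blood, summed to 66.3, 63.5 and 37.1 RPKM in WT and 62.5, 47.9 and 66.2 in KI. This sum was also lowest in WT 3 and then KI 2, but its low value in KI 2 came mostly from Etv2. Etv2, the factor that starts the endothelial lineage, was at 20.2, 6.74 and 26.7 RPKM in KI 1, 2 and 3. Of 11 tested endothelial markers 6 were below both other KI libraries in KI 2, with a median log2 difference of -0.15. Cldn5, Esam, Emcn and Cdh5 were highest among the KI libraries in KI 2. Over all libraries Etv2 lay at 6.74 to 26.7 RPKM, Egfl7 at 4.16 to 9.50 and Cldn5 at 2.55 to 11.5. The part of endothelium in the low values of the members was not tested.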

How the data were processed

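Per the labels' protocols, oligo(dT) beads selected the RNA and a SMARTER kit gave the libraries. Per the submitters' processing notes the genome build was GRCm39. The aligner, counter, annotation and strand setting are not given in the sources used here. Although the labels name raw counts, the deposited table holds RPKM: multiplied by merged exon length in GENCODE M21 (21229 of 21877 symbols matched), 97.9% to 98.0% of values under 2000 reads were whole multiples, within 0.05, of a single step per library, which gave the depths and reads. For 32 of the 35 members all values were whole, and for Klf1, Ppox and Epb41 they were not. The recovered reads of these genes are thus less exact, while their RPKM are as deposited. For 22 repeated symbols the higher row was used.

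A quasi-likelihood count test had been planned for raw counts. As the unit was RPKM, the fit fixed for that case was run: limma 3.58.1 (R 4.3.3), fitted to log2(RPKM + 1) with trend and robust prior, on genes at 1 RPKM or more in at least 3 libraries, KI against WT with no covariate. This scale understates the change of low genes. The fit was tested on simulated data with known changes, drawn gene by gene without shifts shared across a library. That test thus does not show how the fit performs with shifts like those of WT 3 and KI 2. Depth limits the low members: at 1 read over 2 kb the RPKM was 0.0369 to 0.0512. Alternatives covered the pseudocount, the filter, median centring, limma-voom, the replicate number as a block, each library left out, WT 3 and KI 2 left out together, and library weights. Members, lists and alternatives were chosen with earlier results of these data known. Values by library were given for the 4 highest members of each role and for members with separated groups, and the 3 highest genes of each other list were named, except for a gene that is not reported here. Epor, Nfe2, Alas2, Ppox, Alas1, Ptprc, C1qa, Cd48, Trim10, Blvra and Kdm5d were picked after their values were seen.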

Additional observations from a re-analysis of the deposited data

How the results depend on the processing

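The count of 0 called genes became 41 (18 higher and 23 lower in KI) without WT 3 and KI 2 and 93 (35 higher and 58 lower) with library weights, whose estimation stopped short of its convergence tolerance. The count of 0 called members became 1 with weights (Gfi1b) and stayed at 0 under the other 12 alternatives. The cause was not tested. The member median ran from -0.09 to 0.23 over the fits that each leave out a single library and was 0.0014 without WT 3 and KI 2. Over 13 alternatives and 24 members, 312 differences were refitted: 265 kept direction and side of the threshold, 46 changed sign, none of them past it, and 1 passed. Gfi1b, Rhag, Klf1, Car2 and Tfrc stayed positive and Lmo2 negative throughout. Signs turned without WT 3 and KI 2 for Alas2 -0.023, Uros 0.11, Cpox -0.040, Ppox -0.13, Slc25a37 -0.0095, Abcb10 -0.062, Slc4a1 -0.16, Blvrb -0.12. With weights they turned for Alas2 -0.10, Uros 0.12, Cpox -0.015, Ppox -0.16, Abcb10 -0.13, Rhd 0.024, Blvrb -0.25. They turned with median centring for Alad -0.0054, Urod -0.021, with limma-voom for Urod -0.0051 and with a pseudocount of 0.1 for Kel 0.078. Leaving out single libraries gave ranges across 0: Gata1 -0.035 to 0.45, Epor -0.13 to 0.54, Alas2 -0.12 to 0.40, Uros -0.11 to 0.12, Urod -0.10 to 0.19, Ppox -0.19 to 0.61, Fech -0.014 to 0.32, Slc25a38 -0.53 to 0.22, Abcb10 -0.26 to 0.32, Gypc -0.50 to 0.15, Slc4a1 -0.22 to 0.33, Epb41 -0.089 to 0.19, Rhd -0.31 to 0.086, Kel -0.40 to 0.25, Blvrb -0.11 to 0.24. With the replicate block 0 genes and 0 members were called, and the member median was again 0.10. Same-numbered libraries deviated together at r = 0.12, -0.05 and 0.0054 across genes, so the numbers were not taken as pairs. Depth limits Gfi1b, Epor, Rhd and Rhag, which rest on at most 52 reads in any library.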

Other observations

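Without WT 3 and KI 2 the embryonic globin genes Hba-x (log2 difference -0.68, adjusted p = 0.0272 by limma) and Hbb-y (-0.62, adjusted p = 0.0249) passed the threshold, in a fit in which 0.406% of all tested genes did. With all libraries neither passed (adjusted p = 0.999 each), and Hbb-y had a difference of 0.31 (SE 0.52). The Y-linked Kdm5d passed in the same fit (-1.32, adjusted p = 0.031), so genotype and Y-linked expression cannot be told apart there. The ratio of Rhag to Rhd was 0.586, 1.15 and 0.894 in WT and 1.27, 1.70 and 1.74 in KI. This ratio was picked after its values were seen and was not tested. Both genes rest on few reads per library, 21 to 52 for Rhag and 14 to 43 for Rhd.

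Trim10, an erythroid RING finger gene outside the members, was at 0.836, 1.19 and 0.164 RPKM in WT and 1.55, 1.46 and 1.24 in KI, with all KI values above all WT values, from 5 to 40 reads per library (log2 difference 0.53, SE 0.25, adjusted p = 0.999 by limma). Cd68, a lysosomal gene used as a macrophage marker, was separated in the same direction, at 4.42, 4.83 and 2.99 in WT and 5.88, 5.62 and 9.32 in KI, and Blvra, the other biliverdin reductase gene, in the opposite one, at 8.50, 8.55 and 9.11 in WT and 6.64, 8.04 and 5.60 in KI. None of them passed the threshold. Trim10 and Blvra were picked because their groups did not overlap.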
